A study of Homo sapiens with 5 samples.

Results

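The ASXL1 peak list was described on its own here, as the regions called from 1 ASXL1 library against its input in HEK293 cells. All its peaks on chromosomes 1 to 22 and X were taken, without any choice by score, which gave 94093 of the 94237 peaks in the list. The 3 peak lists of the series together held 194274 peaks on the same chromosomes. Chromatin immunoprecipitation with sequencing (ChIP-seq) recovers DNA bound by a protein with an antibody, and a peak is a stretch with more sequenced fragments than a control. The cells were Flp-In HEK293 T-REx, a human embryonic kidney line with an abnormal karyotype, a recombination site for transgenes and a tetracycline repressor. The labels name no treatment and no genetic change beyond the line itself. The ASXL1 library was made from chromatin preparation 63 with an anti-ASXL1 antibody from Santa Cruz Biotechnology. Its control was the input library of the same preparation, DNA from chromatin that had not been immunoprecipitated.

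ASXL1 belongs to a family of proteins related to the fly Polycomb group protein Additional sex combs. It binds the deubiquitinase BAP1, and the complex removes ubiquitin from histone H2A, a mark that Polycomb repressive complexes place. ASXL1 is known for recurrent mutations in myeloid blood cancers.

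The study has 1 ASXL1 library and 1 matched input, so no value below has a replicate error and no test of a difference was made. Intervals given beside shares are 95% Wilson intervals and cover counting error only, since peaks of 1 library share its depth, its control and its PCR amplification. The sequencing depth is not given in the sources used here. Peaks were called on this library alone, not on pooled samples. The score of a peak is the authors' own, from their caller, and served only to describe, rank or divide peaks within this list. Positions are those of the deposited list, build hg19, counted from 1. Gene names were not assigned to peaks, because the gene table used here is of build GRCh38 and positions were not carried from one build to the other.

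Low scores and narrow peaks were common, and a small class was strong and wide. Peak width had a median of 269 bp (quartiles 216 and 478 bp), and the score had a median of 74.2 (quartiles 59.5 and 129). Scores began at 50, and 47731 peaks lay under 75, which was 50.7% of the list. A further 15300 peaks scored 75 to under 100, so that 33.0% of the list reached 100. At the other end 8523 peaks scored at least 500 (9.06%), and these are called strong below. Peaks under 75 are called weak. Peaks both weak and under 300 bp numbered 39653 (42.1%), and 3891 peaks (4.14%) were both strong and at least 1000 bp wide. The number of peaks fell steadily just above the lowest score, from 13167 between 50 and 55 to 6106 between 70 and 75.

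Width rose with score through nearly all of the range. The median width was 230 bp for weak peaks, 408 bp at scores of 100 to under 200, 695 bp at 200 to under 500, and 1025 bp at 1000 to under 3100. Across all peaks Spearman's rho between score and width was 0.622, a description over peaks of 1 library. Strong peaks were rare among narrow ones. Of the 35910 peaks of 200 to under 300 bp, 20 were strong, against 4187 of the 16040 peaks of 500 to under 1000 bp (26.1%) and 736 of the 841 peaks of 2000 bp or more (87.5%). The list covered 39.6 Mb in all, of which weak peaks made up 30.5% and the 9409 highest-scoring peaks (10% of the list) 27.1%. Peaks under 300 bp were 56.1% of the whole list and 12.8% of the peaks that reached 100.

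**Figure D1:**
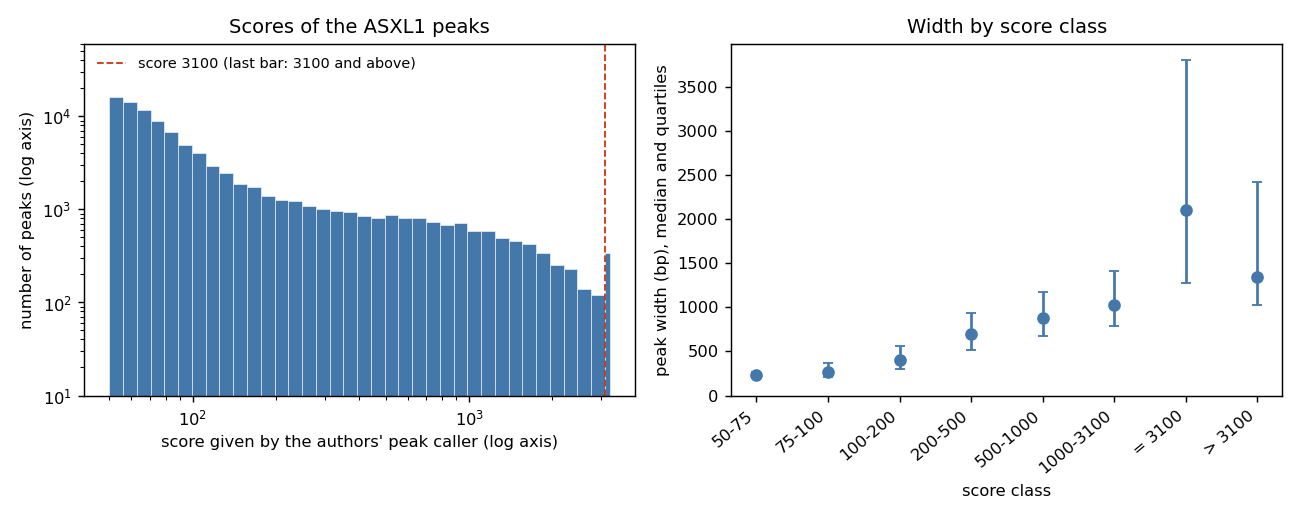
Left, number of ASXL1 peaks (log axis) by score (log axis), with the score of 3100 as a dashed line and the 338 peaks at or above it in the last bar. Right, median peak width in bp with quartiles (bars) in 8 score classes. Median width rises from 230 bp in the lowest class to 2100 bp at exactly 3100, and is 1343 bp above 3100.

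The narrowest peaks broke this order. Peaks under 200 bp had a median score of 65.7, above the 61.6 of peaks of 200 to under 300 bp. Many scores were also repeated exactly. The 94093 peaks held 23827 different scores, and 84.7% of peaks shared their score with at least 1 other. The most frequent value was 73.05, held by 798 peaks with a median width of 156 bp on all 23 chromosomes. The frequent values fell apart by width, with no single order of width by score. Of the 10 most frequent, 5 had median widths of 162 bp or less. The median width was 162 bp at 64.32 (653 peaks), 156 bp at 73.05, 148 bp at 82.09 (586 peaks), 140 bp at 91.43 (493 peaks) and 133 bp at 101.04 (290 peaks). The others held wider peaks, with median widths of 329 bp at 50.4 (247 peaks), 241 bp at 53.87 (531 peaks), 251 bp at 60.28 (414 peaks), 257 bp at 66.94 (288 peaks) and 2100 bp at 3100. These values were singled out after the scores had been seen.

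Scores at the top of the list did not give a full order. Many peaks shared a score of 3100, called the ceiling here although some scores lay above it. 304 peaks were listed at exactly 3100, and 34 peaks lay above it, from 3102.35 to 3233.06. Together these 338 peaks were 0.359% of the list. The highest score, 3233.06, equals 10 times the negative log10 of the smallest positive number that double-precision arithmetic can hold, which also gives 3233.06. No larger score of this form can be written. Peaks at exactly 3100 were wider than those listed above them, with a median of 2100 bp (quartiles 1281 and 3809 bp) against 1343 bp (1025 and 2422 bp). The 34 peaks next below the ceiling, with scores from 2991.92 to 3099.87, had a median width of 1200 bp. Peaks just under 3100 were thus closer in width to those over it than to those at exactly 3100. Ranks among the 338 peaks can therefore not be read as an order of binding strength.

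Just outside the ceiling lay chr17:30676737-30677838 (score 3099.87) and chr10:70715242-70716693 (score 3090.17). Just above it lay chr5:137513994-137515339 (3102.35) and chr16:2204923-2205631 (3105.01).

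The highest listed scores belonged to peaks of very different shape. A score of 3233.06 was held by chr1:113498385-113500649, 2265 bp wide, and by chr11:35547935-35548357, 423 bp wide. The peak on chromosome 11 was the only 1 of the 338 under 500 bp, and its nearest neighbours lay 15229 bp before and 89655 bp after it. The peak on chromosome 1 had a neighbour 31 bp before it. Next came chrX:53448906-53450360 (score 3225.28, 1455 bp) and chr22:39704330-39713625 (score 3214.37, 9296 bp). On chromosome 15, chr15:91260150-91261221 scored 3211.39 and chr15:45003352-45003970 scored 3210.76, with widths of 1072 and 619 bp. The other peaks among the 10 highest were chr5:172754405-172757303 (3208.38), chr6:26520702-26521768 (3207.42), chr1:147735218-147736731 (3201.48) and chr20:47894415-47895529 (3197.62), between 1067 and 2899 bp wide. Because of the ceiling, these 10 are the highest listed scores, and whether they are the strongest sites cannot be read from the list.

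Width gave another ranking. Of the 338 widest peaks, 118 were among the 338 at or above 3100. The widest peak at 3100 was chr19:5689930-5699724 (9795 bp), followed by chr19:51292599-51302212 (9614 bp), chr16:88870419-88879355 (8937 bp), chr1:149806737-149815523 (8787 bp) and chr5:177635590-177644139 (8550 bp). The narrowest at 3100 was chr1:45187162-45187676 (515 bp). Of the 10 widest peaks in the list, 4 were below the ceiling. They were chr1:149821798-149833625 (11828 bp, score 1702.14), chr19:35751324-35760937 (9614 bp, score 1927.92), chr5:176869399-176878740 (9342 bp, score 1955.13) and the widest of all. That peak, chr15:82973272-82985553, spanned 12282 bp with a score of only 50.95. Among the 841 peaks of 2000 bp or more, 9 scored under 100, and the next widest of these was chr19:1105258-1109014 (3757 bp, score 84.92). The peak chr22:39704330-39713625 was the only 1 in both lists of 10. The 2 very wide peaks on chromosome 1 lay close together, and the gap after chr1:149806737-149815523 to the next peak was 3042 bp.

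Peaks of 2000 bp or more were unevenly spread over chromosomes. They were 3.01% of the peaks on chromosome 19 (131 peaks, interval 2.55 to 3.56), the highest share. Chromosomes 22 (1.72%, 36 peaks, 1.24 to 2.37), 17 (1.69%, 82 peaks, 1.36 to 2.09) and 16 (1.60%, 50 peaks, 1.21 to 2.10) followed. The lowest share was 0.212%, on chromosome 4 (7 peaks, 0.103 to 0.437). Peaks at or above 3100 numbered 55 on chromosome 1, 43 on chromosome 17, 40 on chromosome 6 and 29 on chromosome 19. Chromosome X, with 3332 peaks, held 19 of them (0.570%, interval 0.365 to 0.889), while chromosome 4, with 3305 peaks, held 1 (0.0303%, interval 0.00534 to 0.171). A similar number of peaks thus came with very different numbers at the ceiling. Of the 19 on chromosome X, 5 lay between 73 and 74 Mb in 1 run of close peaks. The interval counts them as separate.

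Neighbouring peaks were often very close. The gap between a peak and the next on its chromosome had a median of 7742 bp and a mean of 30919 bp, with quartiles of 1270 and 28744 bp. Gaps under 1000 bp numbered 21261 (22.6%), and 6690 gaps (7.11%) were under 100 bp. The shortest of these gaps are smaller than the sheared fragments, which were 150 to 400 bp on average. Whether such neighbours are separate sites or parts of 1 stretch was not tested. Counts of neighbours, of cluster members and of peaks at the ceiling take each listed peak as 1. At the other end 6484 gaps exceeded 100 kb. Among peaks that reached 100 the median gap was 16885 bp, as a shorter list must have wider gaps. Strong peaks alone had a median gap of 89612 bp (quartiles 20276 and 297171 bp), and 12.1% of the gaps between them were under 5000 bp.

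How often a peak had a close neighbour depended on its score. Another peak lay within 1000 bp of 26.2% of weak peaks (interval 25.8 to 26.6) and of 53.2% of peaks scoring 200 to under 500 (52.1 to 54.3). The share was lower, 45.7%, at scores of 500 to under 1000 (44.3 to 47.1), and highest, 71.7%, at exactly 3100 (66.4 to 76.5). The neighbours of peaks at 3100 were mostly much weaker. The peaks adjoining these 304 within 1000 bp had a median score of 181 (quartiles 84.2 and 488), and 74 of them were themselves strong. For 81 of the 304 there was such a peak on both sides. No other peak lay within 10 kb of 34.6% of weak peaks (16529 peaks). This share was 17.8% at scores of 200 to under 500, 20.1% at 500 to under 1000, 14.8% at 1000 to under 3100 and 5.26% at exactly 3100 (16 peaks).

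Density around the highest-scoring peaks stayed raised over long distances. The list averaged 31.0 peaks per Mb. At 5 to 10 kb from the centre of a peak that scored at least 1000, other peaks occurred at 167 per Mb, at 20 to 50 kb at 95.3 per Mb, and at 100 to 500 kb at 63.1 per Mb. Around weak peaks the densities at these distances were 95.6, 63.0 and 48.5 per Mb. Under 1 kb the density was lowest around peaks of at least 1000, at 98.9 per Mb. It was 133.7 around peaks of 500 to under 1000, 234 around peaks of 100 to under 500 and 129.6 around weak peaks. Distances run between peak centres, so a wide peak itself fills part of this first step. From 2 to 5 kb the density was highest around peaks scoring 100 to under 500, at 189 per Mb, against 160 around peaks of at least 1000 and 114 around weak ones. Strong peaks were 8.90 times as dense as their own average at 5 to 10 kb from a peak of at least 1000, and 2.93 times at 100 to 500 kb. Weak peaks were 3.83 and 1.77 times as dense as theirs around the same peaks. Peaks of the same stretch are counted many times in these figures, so they describe the list and carry no error.

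**Figure D2:**
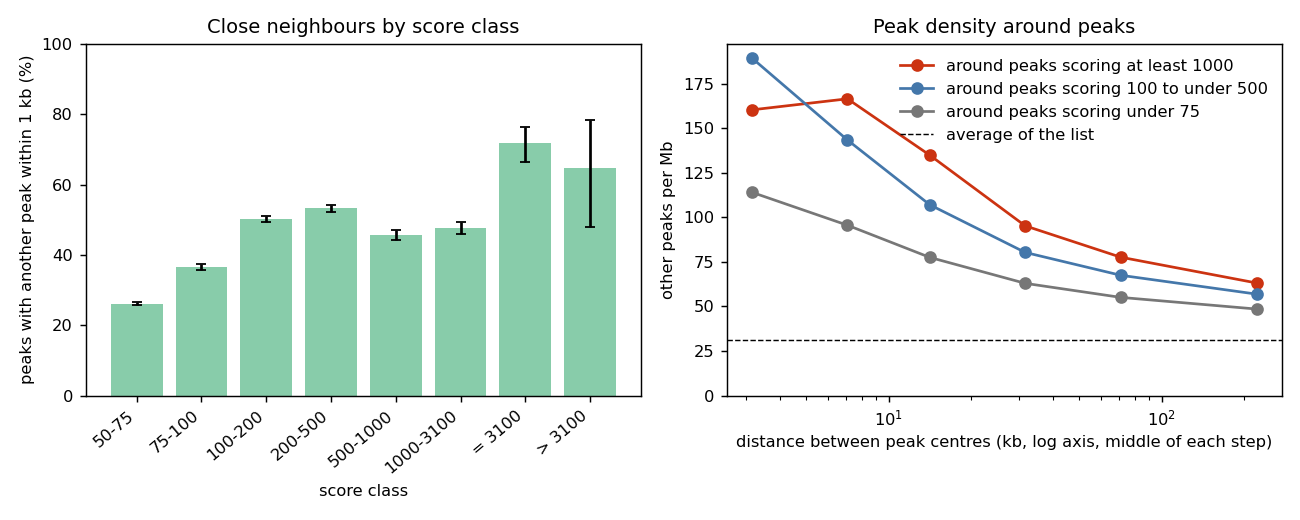
Left, percent of ASXL1 peaks with another peak within 1 kb, by score class, with 95% Wilson intervals as error bars. Right, other peaks per Mb by distance (log axis) from peaks in 3 score classes, with the list average of 31.0 as a dashed line. All 3 curves lie above the average out to 500 kb, and the curve around peaks of at least 1000 is the highest from 5 kb on.

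Peaks were joined into clusters when the gap between them was at most 5000 bp. This gave 54105 clusters, of which 37840 were single peaks (69.9%), and these held 40.2% of all peaks. Clusters of 10 or more peaks numbered 749 and held 10536 peaks (11.2%). Large clusters more often held a strong peak, which more members alone would also give. A strong peak was present in 7.07% of single peaks, 29.2% of clusters of 3 to 4 peaks, 66.5% of clusters of 10 to 19 and 84.3% of the 89 clusters of 20 or more. The number of clusters of 10 or more was 131 with a link of 1000 bp, 1272 with a link of 10000 bp, and 87 among peaks that scored at least 100.

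The cluster with most peaks lay at chr7:27151287-27240273. It held 61 peaks in 88987 bp, and these covered 48.7% of its length. Of the 61 peaks 11 were strong and 11 weak, with a median score of 152 and a median inner gap of 444 bp. Its highest peaks were chr7:27224085-27225530 (score 2756.76), chr7:27204722-27206058 (2085.63) and chr7:27227115-27230493 (1466.71), so it held many strong peaks and none at the ceiling. It was also the cluster with most peaks at a link of 10000 bp (63 peaks) and among peaks of at least 100 (40 peaks).

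The next clusters in size were built differently. At chr22:46460124-46511897, 43 peaks covered 62.5% of 51774 bp with a median inner gap of 153 bp. Its highest peak, chr22:46465436-46468710, was listed at 3100 and lay 5.31 kb from its start. All 5 strong peaks of this cluster lay within 22.7 kb of its start. At chrX:39900941-39969402, 42 peaks covered 31.3% of 68462 bp, with 3 strong peaks and 16 weak ones. The 3 strong peaks there lay together between 55.8 kb and the end of the cluster. Clusters of 41 peaks at chr12:53834790-53901749 and at chr9:139231000-139298640 had 6 and 2 strong peaks.

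**Figure D3:**
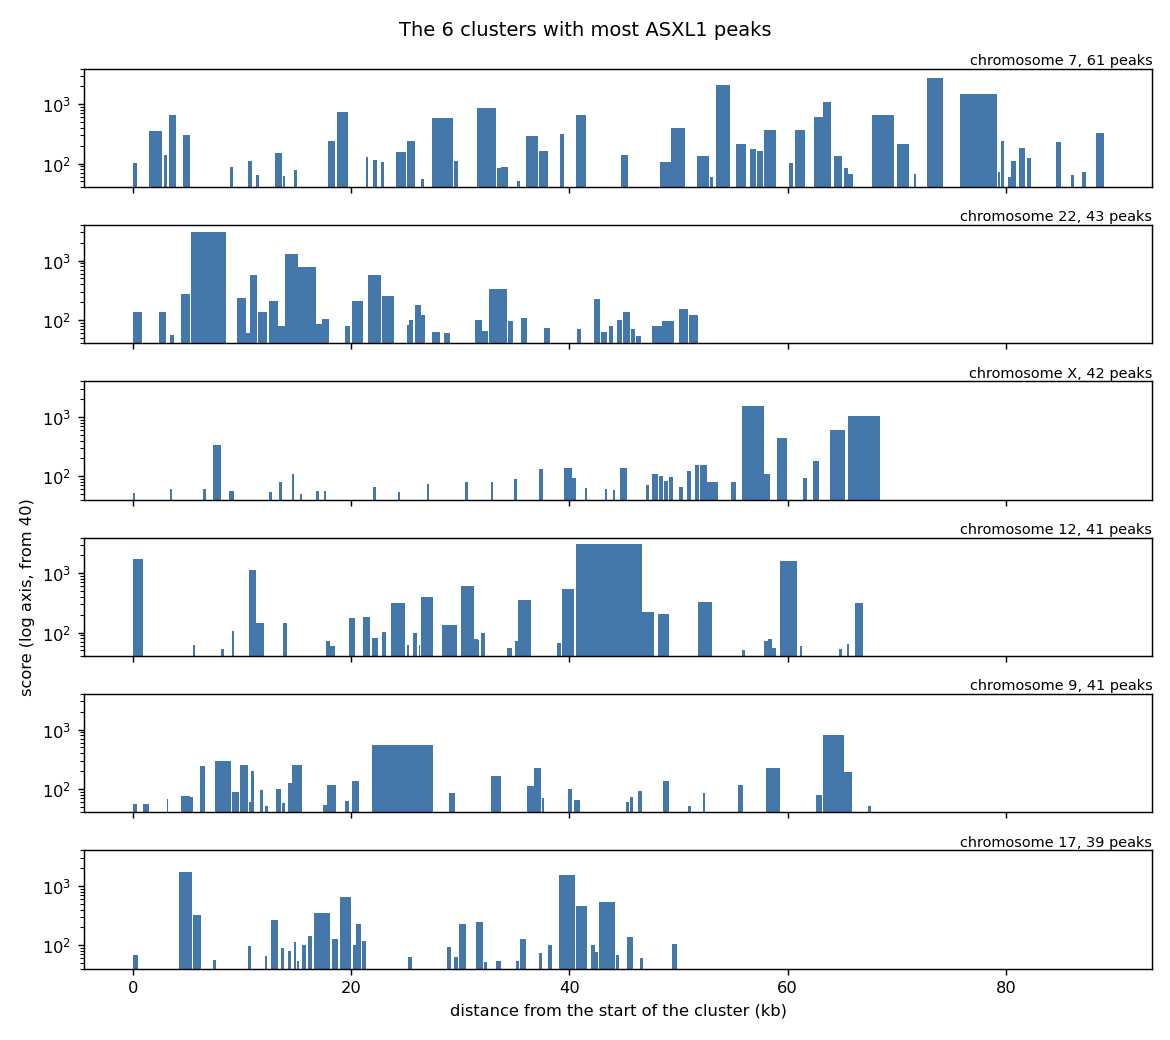
Peaks of the 6 clusters with most ASXL1 peaks, drawn to scale by distance from the start of each cluster (kb), with bar width as peak width and bar height as score (log axis, drawn from 40). The chromosome 7 cluster holds 61 peaks with strong ones along most of its length, while the chromosome X cluster has its 3 strong peaks at one end.

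With a link of 1000 bp the cluster with most peaks was a nearly continuous run at chrX:73026690-73072804. It held 27 peaks in 46115 bp, covered 89.8% of that length and included 13 strong peaks. Of its peaks 5 were at or above 3100, and no other 1 Mb window of chromosome X held as many. These were chrX:73033941-73041658 (7718 bp), chrX:73050099-73053327 (3229 bp), chrX:73061652-73067424 (5773 bp), chrX:73067501-73070130 (2630 bp) and chrX:73070191-73072804 (2614 bp). Those from chrX:73061652 on were separated by gaps under 100 bp, so they may not be separate sites. A similar run at chr1:46736348-46764530 held 25 peaks, covered 85.9% of 28183 bp, and reached a score of 3183.24.

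Strong peaks differed between chromosomes more than weak ones. Weak peaks ranged 3.25-fold in density, from 9.06 per Mb on chromosome 4 to 29.5 per Mb on chromosome 19. Strong peaks ranged 8.58-fold, from 1.18 per Mb on chromosome 18 to 10.1 per Mb on chromosome 19. Chromosome lengths were taken as the end of the last peak, so they include long stretches without a peak. Without the stretch before the first peak and gaps over 3 Mb, the ranges were 3.41-fold for weak and 8.75-fold for strong peaks, with the same chromosomes lowest and highest. On chromosome 19, 13.8% of peaks were strong (interval 12.8 to 14.8), and chromosome 17 followed with 11.4% (10.5 to 12.3). Both lay above the 9.06% of the whole list. The share was lowest on chromosome 18 (6.65%, 5.46 to 8.09) and chromosome 13 (6.68%, 5.71 to 7.80).

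A density near or above the median did not always come with a high share of strong peaks. Chromosome 5 had 34.8 peaks per Mb and chromosome 10 had 37.6, against a median chromosome of 30.1. Without the stretches named above, chromosome 5 was itself the median at 35.5 per Mb, and chromosome 10 had 38.7. Of the peaks on chromosome 5, 7.34% were strong (interval 6.72 to 8.01), and on chromosome 10 7.12% (6.45 to 7.86). Chromosome 11 had fewer peaks, 26.3 per Mb (27.2 without those stretches), and 10.6% of them were strong (9.59 to 11.6). The number of weak peaks per strong peak was 7.60 on chromosome 5, 7.72 on chromosome 10, 4.46 on chromosome 11 and 2.91 on chromosome 19. The line has an abnormal karyotype, and how many copies of each chromosome it carries was not examined. Whether this affects counts and scores by chromosome was not tested, so the differences cannot be read as traits of ASXL1 binding alone.

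**Figure D4:**
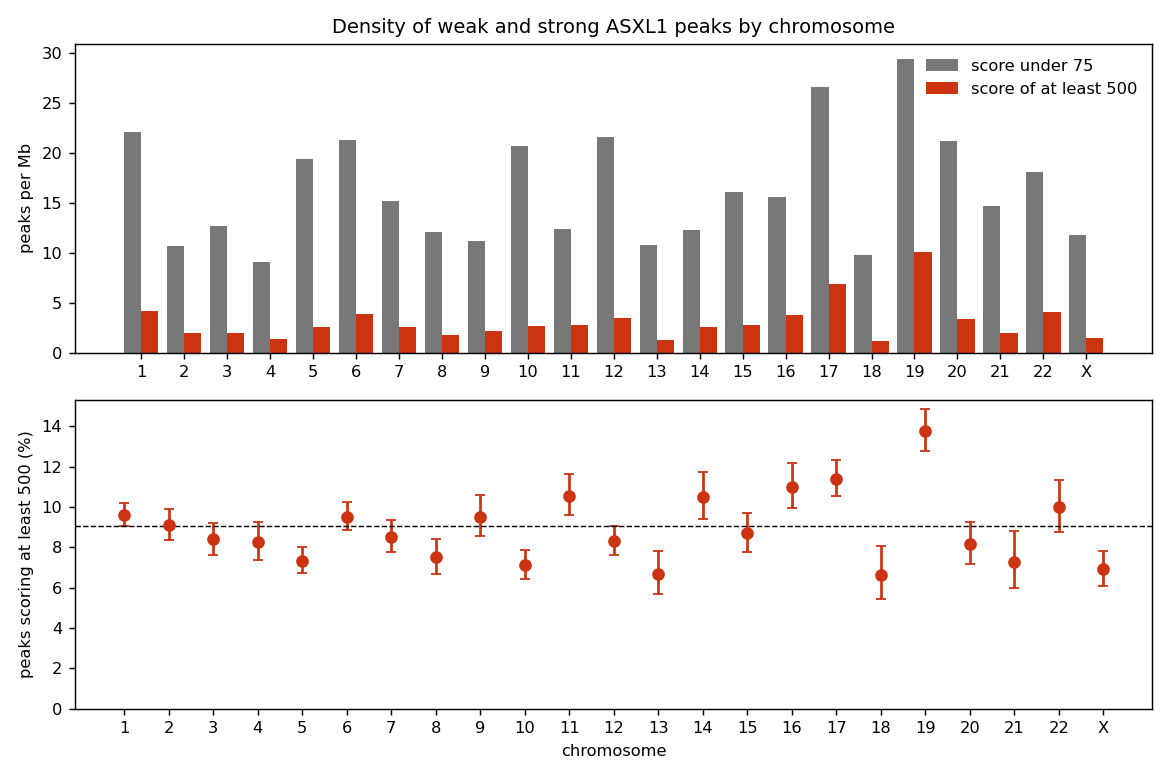
Top, weak (score under 75) and strong (score of at least 500) ASXL1 peaks per Mb on each chromosome. Bottom, percent of peaks that were strong, with 95% Wilson intervals as error bars and the 9.06% of the whole list as a dashed line. Chromosome 19 is highest in all 3 measures, and chromosomes 5 and 10 have shares of strong peaks below that of the list.

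With the windows of all chromosomes ranked together, peaks gathered in a minority of them. Differences between chromosomes are part of this measure. In 3047 windows of 1 Mb the median was 24 peaks (quartiles 9 and 45), 190 windows held none, and 1084 held no strong peak. The 190 were kept among the 3047, and some of them lie in the long empty stretches given below. The densest 10% of windows, 305 of them, held 30.1% of peaks. The highest count was 171 peaks, on chromosome 9 between 139 and 140 Mb, followed by 167 on chromosome 16 between 2 and 3 Mb and 163 on chromosome 6 between 28 and 29 Mb. Counts of weak and strong peaks per 1 Mb window went together, with Spearman's rho of 0.781 as a description over windows of 1 library. Their proportions nevertheless varied widely.

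A stretch of chromosome 6 stood apart. Between 25 and 30 Mb it held 539 peaks, of which 176 were strong (32.7%, interval 28.8 to 36.7), against 9.06% over the list. It was the 5 Mb window with most strong peaks, and the next had 91. The 3 windows of 1 Mb from 26 to 29 Mb held 48, 63 and 57 strong peaks, and no other 1 Mb window had more than 28. Its strong peaks were narrow for their scores. Their median width was 695 bp against 954 bp for all strong peaks, and 50.6% were under 700 bp (interval 43.2 to 57.9) against 22.3% (21.4 to 23.2). Their median score was 1210, and that of all strong peaks was 938. In the next window, from 30 to 35 Mb, 84 of 503 peaks were strong (16.7%) with a median width of 1239 bp. The cause of the difference was not tested.

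The same stretch held 12 peaks at or above 3100, of which 7 lay between 26 and 27 Mb. Of the 7, 5 fell within 26.03 and 26.21 Mb, namely chr6:26030955-26032969, chr6:26103827-26105011, chr6:26122670-26125056, chr6:26156289-26158946 and chr6:26204257-26206580, each listed at 3100. The other two were chr6:26520702-26521768 (3207.42) and chr6:26556656-26557273 (3100).

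A window on chromosome 1, from 145 to 150 Mb, had the second highest share of strong peaks among the 396 windows of 100 or more peaks. It held 232 peaks, of which 59 were strong (25.4%, interval 20.3 to 31.4) and 12 at or above 3100. Its strong peaks had a median width of 1156 bp, so the narrow form seen on chromosome 6 was not shared by it. On the same chromosome the window from 45 to 46 Mb held 6 peaks at or above 3100, among them chr1:45243703-45249170 (5468 bp) and chr1:45972389-45976647 (4259 bp). Among the same 396 windows, the 2 with the lowest shares held slightly fewer peaks than the median 5 Mb window of 131. On chromosome 19 between 25 and 30 Mb 2 of 125 peaks were strong (1.60%, interval 0.440 to 5.65), and on chromosome X between 65 and 70 Mb 2 of 116 (1.72%, 0.474 to 6.07). The chromosome 19 window had no peak between 25 and 28.1 Mb. Chromosome 19, which had the highest density, thus also held the window with the lowest share of strong peaks among these 396.

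**Figure D5:**
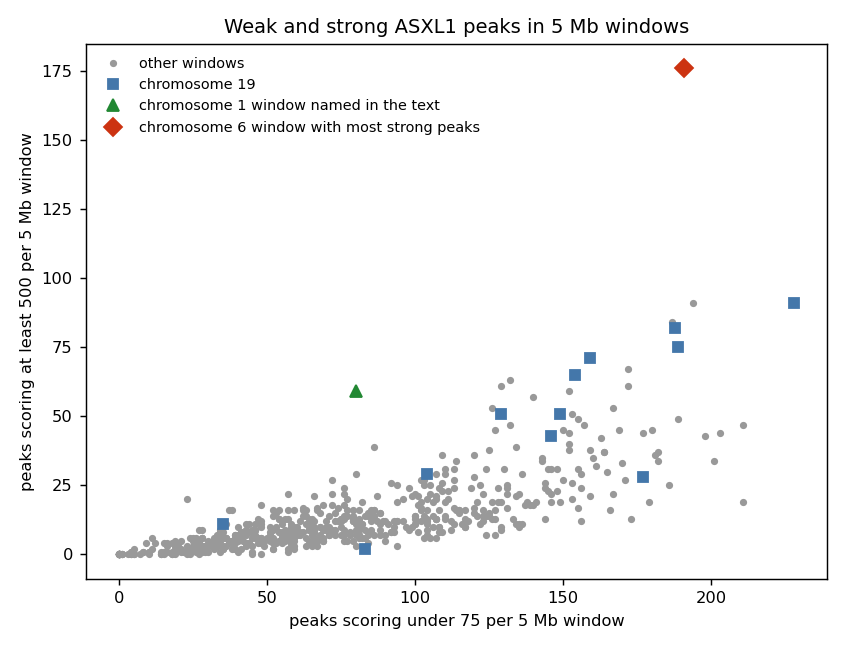
Number of weak peaks (score under 75, horizontal axis) and of strong peaks (score of at least 500, vertical axis) in each of 620 windows of 5 Mb, with those of chromosome 19 as squares. The chromosome 6 window from 25 to 30 Mb has 176 strong peaks, and the chromosome 1 window from 145 to 150 Mb has 59 strong peaks beside 80 weak ones.

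Long stretches held no peak at all. The longest lay between 121.3 and 142.6 Mb on chromosome 1 (21.3 Mb), between 46.9 and 65.6 Mb on chromosome 9 (18.7 Mb) and between 35.03 and 46.5 Mb on chromosome 16 (11.5 Mb). In all 21 gaps exceeded 3 Mb, on 19 chromosomes. As background, the hg19 assembly has long unsequenced runs at centromeres and on the short arms of chromosomes 13, 14, 15, 21 and 22, where no read can be placed. The first peak lay at 19.02 Mb on chromosome 13, 19.2 Mb on chromosome 14, 20.4 Mb on chromosome 15, 9.51 Mb on chromosome 21 and 16.2 Mb on chromosome 22. Chromosomes 9 and X each had 2 gaps over 3 Mb. The second on chromosome 9 ran from 27.8 to 30.9 Mb, and the longest on chromosome X ran from 2.61 to 7.07 Mb. The other on chromosome X ran from 58.5 to 61.9 Mb. Which of the gaps coincide with unsequenced runs was not tested.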

How the data were processed

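ChIP-seq peaks of 1 ASXL1 library and its matched input from HEK293 cells were described. Fixation was for 10 min in 1% formaldehyde, and chromatin was sheared, per the labels' protocols, to 150 to 400 bp on average. Library fragments of 250 to 350 bp were amplified by 18 PCR cycles. The submitters' processing notes name Bowtie2 2.0.0, MACS 1.4 and hg19, without settings, so their effect on the list is unknown. The score of each peak is the value the authors deposited. The list has no header, and scores of this caller are by convention 10 times the negative decimal logarithm of its p. From the list, widths, gaps, clusters (gaps of at most 5000 bp) and counts in windows of 1 and 5 Mb by peak centre were computed with Python 3.11.15, pandas 2.3.3 and scipy 1.17.1, and checked on simulated peaks. Named peaks were the 10 highest-scoring (ties by width), the 10 widest and the 3 clusters with most peaks. Windows, ties and other positions were chosen after the values were seen. Members and lists were chosen with earlier results of these data known. Gene lists, promoters and gene starts fixed for the comparison were not used, because the gene table is of build GRCh38.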

Additional observations from a re-analysis of the deposited data

Results flagged for a closer look

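144 ASXL1 peaks lay outside chromosomes 1 to 22 and X and entered no comparison. They were singled out because a signal appears in data left out of the description. Of these, 39 lay on chromosome Y, with a highest score of 1295.95, and 105 lay on 22 unplaced or unlocalised contigs, of which 1 held 34. The highest scores were 3044.67 on contig 1_gl000191_random and 3034.55 on contig 7_gl000195_random. Their median score of 78.0 was close to the 74.2 of the peaks described above. The matching input values were not analysed here.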

How the results depend on the processing

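No paired analysis was possible because ASXL1 had 1 library, and no library was left out for the same reason. Without the widest 1% of peaks the share of weak peaks was 51.2%. With a score of at least 100, 12.8% of peaks were under 300 bp, rho between score and width was 0.687, the median gap was 16885 bp, 87 clusters had 10 or more peaks and chromosome 19 held 6.24% of peaks. Without scores of 3100 or more, rho was 0.618. Links of 1000 and 10000 bp gave 131 and 1272 clusters of 10 or more. With neighbours within 1000 bp merged (72822 regions), chromosome 19 held 4.03% of them, against 4.62% of all peaks. In windows of 5 Mb the densest 10% held 24.9% of peaks, against 30.1% in windows of 1 Mb. A shorter list or another link moves these counts by construction, and beyond that the cause was not tested. Further alternatives, among them densities without long empty stretches, were chosen after seeing the data. Without the 10 widest peaks, peaks at exactly 3100 had a median width 723 bp above those over 3100, against 757 bp with them. The share of strong peaks on chromosome 6 between 25 and 30 Mb was 3.60 times that of the list, 2.42 times for scores of at least 200, 4.65 times for at least 1000, and 3.75 times after merging. Alternatives that need gene starts or promoter sequence were not run. The depth behind each peak is unknown, so a stretch without a peak is one without a listed score of 50 or more, not one shown to lack ASXL1.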

Other observations

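With all chromosomes pooled, peaks were denser within 5 Mb of the last listed peak of a chromosome than farther in, up to 40 Mb from it. There were 51.1 peaks and 5.05 strong peaks per Mb in the last 5 Mb, against 33.4 and 2.78 at 20 to 40 Mb from it. The share of strong peaks was 9.88% and 8.31% in these classes. Single chromosomes differed, since chromosome 1 had 93 peaks from 245 to 250 Mb and 427 from 225 to 230 Mb. The values come from 1 library.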
